A study of Homo sapiens with 8 samples.

Results

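The genes described here are ATF4, DDIT3, ASNS, TRIB3, CHAC1, SESN2, ATF3, PSAT1, HSPA5 and XBP1, which encode central parts of the integrated stress response and the unfolded protein response. They were listed by name and known role, not by a threshold on their values, although earlier results of these data were known when the list was made, and all 10 of them were found among the 25603 genes of the expression table and were tested with 20153 genes in all. When unfolded proteins accumulate in the endoplasmic reticulum (ER), or when amino acids run short, kinases phosphorylate the translation factor eIF2. General translation then slows while translation of the ATF4 mRNA increases, and ATF4 activates genes for amino acid synthesis, amino acid import and tRNA charging. In parallel, the ER sensors IRE1 and ATF6 act through spliced XBP1 mRNA and cleaved ATF6 to raise ER chaperones, a response on which secretory cells such as hepatocytes rely. ATF4 and XBP1 are themselves controlled largely after transcription, by translation and by splicing, so mRNA levels per gene report only a part of their activity.

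RNA was from HepG2, an established human hepatocarcinoma cell line. EZHi cells had been exposed for 4 days to UNC1999 and valemetostat tosylate, inhibitors of the histone H3 lysine 27 methyltransferases EZH1 and EZH2, at 1 µM each. Vehicle cells had been cultured for the same 4 days with DMSO, which the labels give as 0.2%. There were 4 libraries per group, which the study describes as independent biological replicates of this 1 cell line, and both inhibitors were always given together, so their effects cannot be told apart. Expression is given as a length-corrected log2 value. A level per length, in estimated FPKM, was derived from it for comparisons between genes. Read depth is unknown because the values are already normalized for it. In bulk RNA, fewer cells expressing a gene and less of its RNA per cell cannot be told apart.

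All 9 hepatocyte markers examined were well above the filter of 0.1 FPKM, with summed levels of 24077 to 46998 FPKM in vehicle libraries and 26537 to 43126 FPKM in EZHi libraries, and of these only FGB was called (higher). Of 4 immune markers, CD3E was below the filter, and PTPRC, CD68 and MS4A1 were not in the expression table. The summed level of 3 endothelial markers was 2.26 to 2.72 FPKM in vehicle libraries and 3.42 to 7.21 FPKM in EZHi libraries. The endothelial genes VWF and CDH5 rose, PECAM1 did not pass the test, and none of the 2 stromal markers tested (of 4) was called. The part of these marker changes in the results below was not tested. Across all genes, 13.1% were called (limma adjusted p under 0.05), 1784 higher and 860 lower with EZHi. The direction of change depended on level and on scaling: the median log2 fold change was -0.09 among the 7809 genes of 10 FPKM and over, against 0.06 among genes of 0.1 to under 1 FPKM. When libraries were centred on the genes of 10 FPKM and over, 2550 genes were called higher and 319 lower, so small decreases of abundant genes have to be read against this shift.

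Regulatory sequences known for parts of this pathway were looked up in RefSeq promoter windows of GRCh38.p14, each covering 250 bases before and 50 after a start site. Elements outside these windows would be missed. A set of 3 short motifs was searched on both strands, and matches are shown because these are the known elements of the amino acid branch and of the ER branch. The ER stress response element (ERSE), bound by ATF6 and NF-Y, was searched as CCAAT followed after 9 bases by CCACG, and 25 of 27305 genes (0.0916%) held it in a window. Among the 10 genes it was present in HSPA5 and XBP1, and in the windows of 5 of 17 ER chaperone genes matched, including HSP90B1 and CALR. These stretches are given 5′ to 3′ on the strand of the gene, with the motif in capitals, at chr9:125241386-125241414 (minus strand, HSPA5), chr22:28800598-28800626 (minus, XBP1), chr12:103930211-103930239 (plus, HSP90B1) and chr19:12938379-12938407 (plus, CALR, motif on the opposite strand).
HSPA5: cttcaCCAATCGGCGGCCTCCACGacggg
XBP1: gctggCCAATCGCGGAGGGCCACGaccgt
HSP90B1: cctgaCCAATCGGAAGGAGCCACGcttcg
CALR: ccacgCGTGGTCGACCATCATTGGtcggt

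The C/EBP-ATF response element (CARE), bound by ATF4 with C/EBP partners, was searched as TGATGNAA and was found for 4.46% of all genes. It was present in 3 of the 10 genes, ASNS, ATF3 and CHAC1, and in 7 of the 10 cytosolic aminoacyl-tRNA synthetase genes matched, but in 0 of the 17 ER chaperone genes matched. Other lists lay between: 4 of 8 amino acid transporters, 1 of 6 amino acid synthesis genes and 1 of 12 other ATF4 and CHOP targets. It was also found for 3 of 14 stress sensors and other bZIP factors and 1 of 18 ER translocation and degradation genes. Of eIF2 kinases and phosphatases 1 of 7 held it, and of eIF2 and eIF2B subunits 0 of 7. The cyclic AMP response element core TGACGT was found for 9.64% of all genes and among the 10 genes in HSPA5 only. The 3 members with a CARE are shown with AARS1 and GARS1, which encode synthetases that fell with EZHi, at chr7:97872458-97872487 (minus strand, ASNS), chr1:212565205-212565234 (plus, ATF3), chr15:40953251-40953280 (plus, CHAC1), chr16:70289675-70289704 (minus, AARS1) and chr7:30594834-30594863 (plus, GARS1). The motif lies on the opposite strand in CHAC1, AARS1 and GARS1. TARS1, which fell, also held a CARE, and so did CARS1, IARS1, MARS1 and NARS1, which were not called. The 3 members with a CARE were not called. ATF4, TRIB3, DDIT3, SESN2 and PSAT1 held none of the 3 motifs in their windows, although TRIB3 and DDIT3 fell. A match describes these windows only, and binding was not measured. Whether a CARE goes with a fall was not tested.
ASNS: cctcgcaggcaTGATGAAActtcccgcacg
ATF3: aaaggtcaggaTGATGGAAggctgtcatat
CHAC1: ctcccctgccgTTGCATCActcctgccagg
AARS1: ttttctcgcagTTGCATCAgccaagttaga
GARS1: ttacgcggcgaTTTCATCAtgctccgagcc

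Levels of the 10 genes lay between the 2.61 and 98.8 percentiles of all genes tested. HSPA5 was the most abundant (349 FPKM on average over both groups), followed by XBP1 (281), ATF4 (274), PSAT1 (134) and TRIB3 (96.0). SESN2 (6.93 FPKM), ATF3 (6.16) and DDIT3 (5.72) formed a middle group, and ASNS (0.54) and CHAC1 (0.12) were low. The order of XBP1 and ATF4 differed between groups: vehicle libraries held 270 ± 32.2 FPKM of XBP1 and 290 ± 22.7 of ATF4, and EZHi libraries held 293 ± 39.8 and 258 ± 15.6 (SD, n = 4). SESN2, ATF3 and DDIT3 lay within 1 SD of the next gene in vehicle libraries, at 7.07 ± 0.784, 6.02 ± 0.609 and 6.49 ± 0.745 FPKM, and their order is not resolved there.

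**Figure D1:**
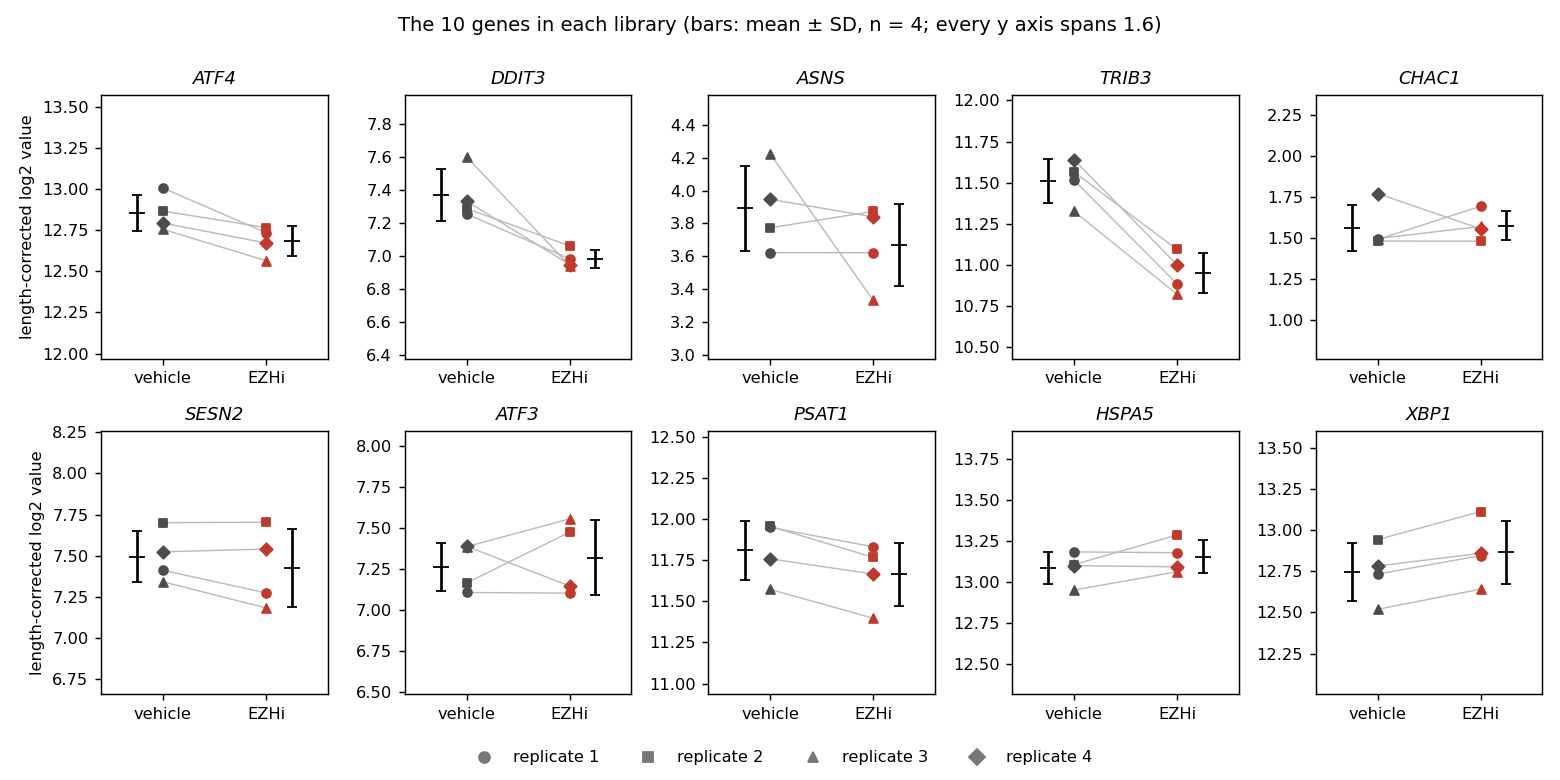
Length-corrected log2 value (y axis, each panel spanning 1.6) of the 10 genes in vehicle (grey) and EZHi (red) libraries, with lines joining libraries of equal replicate number and bars for the mean ± SD (n = 4). TRIB3 and DDIT3 are the 2 genes whose EZHi values all lie below the vehicle values.

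Of the 10 genes, 2 fell with EZHi and 0 rose. TRIB3 fell by 32.2% and DDIT3 by 23.5%, and the other 8 did not pass the test, among them ATF4 itself and the ER chaperone gene HSPA5. For comparison, 4.27% of all genes tested were called lower. By the unadjusted p, 3 of the 10 genes were under 0.05, the third being ATF4, close to the shares of 26.6% over all genes tested and 29.9% over genes of 10 FPKM and over. The median log2 fold change of the 10 genes was -0.11, against -0.01 over all genes tested and -0.09 over genes of 10 FPKM and over. Vehicle and EZHi values were fully separated for TRIB3 and DDIT3, 2 of the 10 genes, as they were for 18.6% of all genes tested.

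Libraries of equal replicate number deviated from their group means together, so the comparison was also made within these pairs (limma with the replicate number as a block). The block called 4 of the 10 genes, ATF4, DDIT3, TRIB3 and PSAT1, all lower, while 30.0% of all genes were called and 15.1% were called lower. Among genes of 10 FPKM and over, the class to which ATF4, TRIB3 and PSAT1 belong, 9.16% were called lower without the block and 32.5% with it. Several of these calls changed with the scaling. With the block and centring on genes of 10 FPKM and over, the genes called were DDIT3 and TRIB3 (lower) and HSPA5 and XBP1 (higher). This fit called 22.6% of all genes higher and 6.79% lower, so 2 of 10 called higher is near its background. Block with quantile normalization gave the same 4 genes, with 13.7% of all genes called higher and 14.0% lower.

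**Figure D2:**
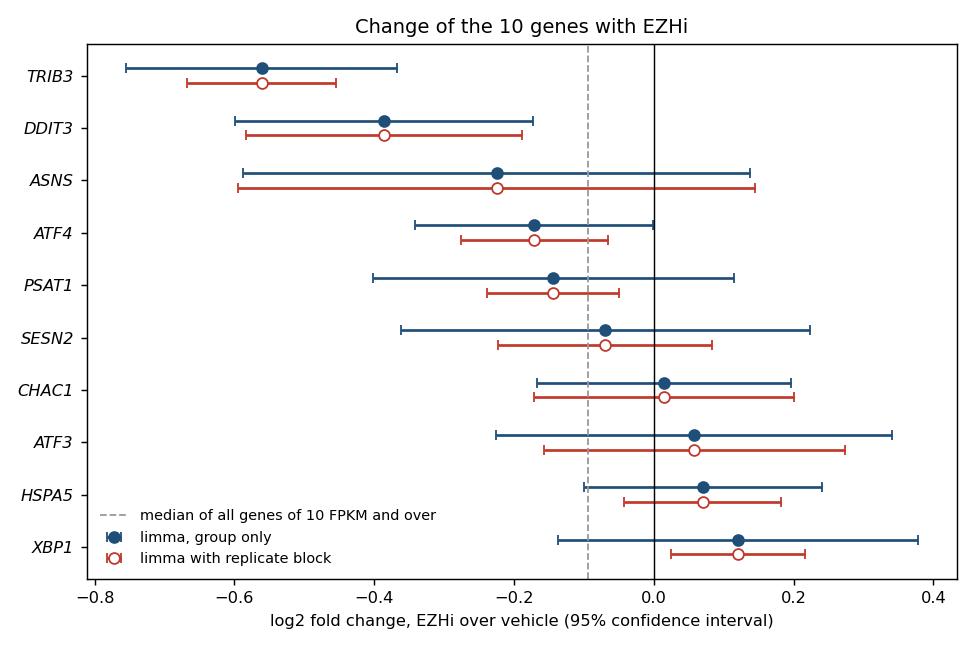
Log2 fold change of the 10 genes, EZHi over vehicle, with 95% confidence intervals from limma with group as the only term (filled) and with the replicate number as a block (open); the dashed line is the median of genes of 10 FPKM and over. Intervals are not adjusted for the number of genes, and those of TRIB3 and DDIT3 are the ones that lie wholly below the dashed line in both fits.

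ATF4 (ENSG00000128272, chr22:39519695-39522683, plus strand) encodes the transcription factor of the integrated stress response. Its values were 13.01, 12.87, 12.76 and 12.79 in vehicle replicates 1 to 4 and 12.73, 12.77, 12.57 and 12.67 in EZHi replicates 1 to 4. EZHi values were lower in every pair, by 0.10 to 0.27, but the groups overlapped, since EZHi replicate 2 lay between vehicle replicates 3 and 4. The log2 fold change was -0.17 (SE 0.076, 95% interval -0.34 to -0.0006, limma adjusted p = 0.186). Within pairs the interval was -0.28 to -0.07 and the gene was called (limma adjusted p = 0.0229). Centring on genes of 10 FPKM and over left -0.08, which was not called with the block either (limma adjusted p = 0.227). The ATF4 pseudogene ATF4P3, which could share reads with it, was listed at 1.07 FPKM.

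TRIB3 (ENSG00000101255, chr20:362835-397559, plus strand) encodes a pseudokinase that is induced by ATF4 and CHOP and restrains AKT signaling. Its values were 11.52, 11.56, 11.33 and 11.64 in vehicle replicates 1 to 4 and 10.89, 11.09, 10.82 and 11.00 in EZHi replicates 1 to 4. Every EZHi library was below every vehicle library, and the paired differences were similar, from -0.47 to -0.64. The mean changed from 114 ± 10.3 to 77.5 ± 6.54 FPKM (SD, n = 4), a log2 fold change of -0.56 (SE 0.087, 95% interval -0.75 to -0.37, limma adjusted p = 0.00215). TRIB3 remained called when any 1 library was left out (limma adjusted p from 0.00121 to 0.00955), after centring (-0.47, limma adjusted p = 0.00381) and after quantile normalization (-0.44, limma adjusted p = 0.00916).

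DDIT3 (ENSG00000175197, chr12:57516588-57521737, minus strand) encodes CHOP, the transcription factor that links prolonged ER stress to cell death. Its values were 7.25, 7.29, 7.60 and 7.33 in vehicle replicates 1 to 4 and 6.98, 7.06, 6.94 and 6.95 in EZHi replicates 1 to 4. The groups did not overlap, EZHi values being closely spaced and vehicle replicate 3 the highest. The level changed from 6.49 ± 0.745 to 4.94 ± 0.191 FPKM (SD, n = 4), a log2 fold change of -0.39 (SE 0.095, 95% interval -0.60 to -0.17, limma adjusted p = 0.025; with the block 0.00988). This call was lost after centring (-0.29, limma adjusted p = 0.0732), in 4 of 8 fits that left out 1 library (vehicle replicate 4 or EZHi replicate 1, 3 or 4, limma adjusted p up to 0.0723) and without both libraries numbered 3 (-0.30, limma adjusted p = 0.0648). With the block it held in 8 of 8 such fits and after centring (limma adjusted p = 0.0291). Counting ignored strand, and 39.6% of the exonic bases of DDIT3 lie in exons of other genes. Of its exonic bases 27.2% are in MARS1, a gene on the opposite strand with a level of 137 FPKM and a log2 fold change of -0.35 (limma adjusted p = 0.145, with the block 0.00063), 8.03% in the same-strand gene ENSG00000285133 and 4.44% in MBD6 on the opposite strand. Reads that fell on 2 genes are left out by the counting mode of the study, so the DDIT3 values are uncertain.

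The remaining stress factor and targets among the 10 genes did not pass the test. ATF3 (ENSG00000162772, chr1:212565334-212620777, plus strand), an immediate response factor, was measured at 7.11, 7.17, 7.39 and 7.39 in vehicle and at 7.10, 7.47, 7.56 and 7.15 in EZHi replicates 1 to 4. Pairs 2 and 3 were higher with EZHi and pair 4 was lower, and the interval of the difference was -0.23 to 0.34 (limma adjusted p = 0.828). SESN2 (ENSG00000130766, chr1:28259518-28282491, plus strand), a sestrin that inhibits mTORC1 when leucine is scarce, was measured at 7.41, 7.70, 7.34 and 7.52 in vehicle and 7.27, 7.70, 7.18 and 7.54 in EZHi replicates 1 to 4. Its interval was -0.36 to 0.22 (limma adjusted p = 0.799), and replicate 2 was the highest library in both groups. CHAC1 (ENSG00000128965, chr15:40952962-40956512, plus strand), which degrades glutathione, lay just above the filter, at 1.48 to 1.77 in vehicle and 1.48 to 1.69 in EZHi libraries. At 0.12 FPKM a change of CHAC1 was hardly detectable, and its difference was 0.02 (95% interval -0.17 to 0.20, limma adjusted p = 0.937).

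Of the 2 amino acid enzymes, neither passed the test. PSAT1 (ENSG00000135069, chr9:78297125-78330093, plus strand), the aminotransferase of serine synthesis, was measured at 11.95, 11.96, 11.57 and 11.76 in vehicle and at 11.83, 11.77, 11.40 and 11.67 in EZHi replicates 1 to 4. It was lower in all 4 pairs by small amounts of 0.09 to 0.19, while the groups overlapped. The log2 fold change was -0.14 (SE 0.115, limma adjusted p = 0.484), called with the block (limma adjusted p = 0.0299), but in 0 of 8 fits with the block when 1 library was left out and not after centring with the block (limma adjusted p = 0.424).

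ASNS (ENSG00000070669, chr7:97851677-97872542, minus strand), the asparagine synthetase that is among the best known ATF4 targets, was low, at 0.54 FPKM. Its values were 3.62, 3.77, 4.22 and 3.95 in vehicle and 3.62, 3.87, 3.33 and 3.84 in EZHi replicates 1 to 4. Libraries numbered 3 were the highest vehicle and the lowest EZHi library, and they carried the whole difference of -0.22 (SE 0.162, limma adjusted p = 0.43), which was 0.00 without them (limma adjusted p = 0.995). Of the exonic bases of ASNS, 49.3% are shared with a same-strand lncRNA gene (ENSG00000284707, 0.285 FPKM). The counting mode of the study leaves out reads that fall on both genes, so reads on the shared bases would be missing from ASNS and its level is uncertain.

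The ER branch was represented by HSPA5 and XBP1. HSPA5 (ENSG00000044574, chr9:125234853-125241382, minus strand) encodes BiP, the ER chaperone that holds the stress sensors inactive. Its values were 13.18, 13.11, 12.95 and 13.10 in vehicle and 13.18, 13.29, 13.06 and 13.09 in EZHi replicates 1 to 4. The groups overlapped, with vehicle replicate 3 below and EZHi replicate 2 above all libraries of the other group, and a log2 fold change of 0.07 (SE 0.076, 95% interval -0.10 to 0.24, limma adjusted p = 0.624). XBP1 (ENSG00000100219, chr22:28794555-28800597, minus strand), the substrate of IRE1 splicing, was measured at 12.73, 12.94, 12.52 and 12.78 in vehicle and at 12.85, 13.11, 12.64 and 12.86 in EZHi replicates 1 to 4. Each EZHi value exceeded its vehicle partner, by 0.08 to 0.17. The log2 fold change was 0.12 (SE 0.115, limma adjusted p = 0.567, with the block 0.0613). With the block and centring on abundant genes, HSPA5 (0.17, limma adjusted p = 0.0227) and XBP1 (0.22, limma adjusted p = 0.00301) were called higher, as were 16.1% of all genes of 10 FPKM and over in that fit and 14.4% with the block and quantile normalization. Spliced and unspliced XBP1 are not separated in values per gene.

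The 117 other genes of the pathway that could be tested, in 9 lists by role, comprised 3 called higher and 23 called lower, with a median log2 fold change of -0.11. These lists were not used to choose the 10 genes, but they were drawn up with earlier results of these data known. Among the 104 of them at 10 FPKM and over, 20.2% were called lower, where 9.16% of all such genes were. These shares were 8.65% against 3.32% after centring, 4.81% against 3.38% after quantile normalization, and 44.2% against 32.5% with the block. With block and quantile normalization together they were 29.8% against 16.5%. The share was higher among the 104 in each of these fits, by the fewest percentage points after quantile normalization alone. Fewer of the 117 were called after centring (4 higher, 10 lower) and after quantile normalization (3 higher, 8 lower). Of all genes tested, these fits called 12.7% and 6.93% higher and 1.58% and 3.89% lower. With the block 6 of the 117 (5.13%) were higher and 49 (41.9%) lower, against 14.9% and 15.1% of all genes tested. With block and centring together 15 (12.8%) were higher and 30 (25.6%) lower, against 22.6% and 6.79%.

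Upstream of ATF4, the list of eIF2 kinases and phosphatases had 2 of 9 genes lower (22.2%) and 0 higher (1 lower after centring). Of all genes of 10 FPKM and over, 9.16% were called lower, and 3.32% after centring. PPP1R15A, which encodes the GADD34 subunit that lets eIF2 be dephosphorylated and is itself a target of the pathway, was 8.86, 8.78, 9.16 and 9.13 in vehicle and 8.27, 8.34, 8.64 and 8.29 in EZHi replicates 1 to 4. All EZHi values were below all vehicle values, and the log2 fold change was -0.60 (SE 0.117, limma adjusted p = 0.0081; after centring -0.50, limma adjusted p = 0.0189). EIF2AK1, the heme-regulated kinase HRI, fell too (-0.26, limma adjusted p = 0.0268; after centring 0.145), while the difference of the ER stress kinase gene EIF2AK3 (PERK) was -0.01 (limma adjusted p = 0.98). Of 8 eIF2 and eIF2B subunit genes, only EIF2B3 was called (-0.33, limma adjusted p = 0.033), and it was not after centring. This 12.5% of the list is near the 9.16% of all genes of 10 FPKM and over. Among 14 UPR sensors and other bZIP factors, CREB3L2 (-0.33, limma adjusted p = 0.0103) and the ATF4 partner CEBPG (-0.26, limma adjusted p = 0.0336) fell, neither after centring, and CREB3L1 rose by 0.88 (limma adjusted p = 0.000333), from 0.214 to 0.395 FPKM. Thus 14.3% of this list were called lower and 7.14% higher, where 8.85% of all genes tested were called higher.

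More genes downstream of ATF4 were called lower than higher. Of 48 tested genes for amino acid synthesis, tRNA charging, amino acid transport and other ATF4 or CHOP targets, 15 were called lower and 2 higher, 40 (83.3%) had a negative log2 fold change, and the median was -0.26. Of the 7809 genes of 10 FPKM and over, 715 were called lower and 213 higher, and 72.9% had a negative log2 fold change, so a lean to lower values was general among abundant genes. After centring 9 (18.8%) were lower and 3 (6.25%) higher, against 3.32% and 5.26% of all genes of 10 FPKM and over. After quantile normalization 7 (14.6%) were lower and 2 (4.17%) higher, against 3.38% and 4.16% of such genes. With block and centring 23 (47.9%) were lower and 5 (10.4%) higher, against 14.6% and 16.1% of all genes of 10 FPKM and over. GDF15, a secreted stress hormone, changed most among those lower. Its values were 12.24, 12.35, 12.85 and 12.73 in vehicle and 11.44, 11.89, 11.95 and 11.69 in EZHi replicates 1 to 4, a log2 fold change of -0.80 (SE 0.156, limma adjusted p = 0.00793; after centring -0.70, limma adjusted p = 0.0126). Its level went from 236 ± 47.6 to 135 ± 20.8 FPKM (SD, n = 4), and the groups did not overlap. NUPR1 (-0.58, limma adjusted p = 0.022), STC2 (-0.47, limma adjusted p = 0.027) and VLDLR (-0.45, limma adjusted p = 0.0273) of the same list fell too, the last 2 not after centring.

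Amino acid transporters had 4 genes lower (44.4%) and 1 higher (11.1%) of 9. Of all genes of 10 FPKM and over, 9.16% were called lower and 2.73% higher. SLC38A2, which encodes the neutral amino acid carrier SNAT2, was at 13.73, 14.10, 14.49 and 14.21 in vehicle and 13.26, 13.38, 13.65 and 13.44 in EZHi replicates 1 to 4, a log2 fold change of -0.70 (SE 0.150, limma adjusted p = 0.0131). SLC7A1, the cationic amino acid transporter, varied little within groups, at 10.46 to 10.54 in vehicle and 10.11 to 10.17 in EZHi libraries (-0.34, SE 0.053, limma adjusted p = 0.00201). Both held after centring (limma adjusted p = 0.0248 and 0.0113). The 2 chains of the large neutral amino acid exchanger, SLC7A5 (-0.32, limma adjusted p = 0.0443) and SLC3A2 (-0.29, limma adjusted p = 0.0151), did not, and the glycine transporter gene SLC6A9 rose by 0.69 (limma adjusted p = 0.0208).

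Of 13 cytosolic aminoacyl-tRNA synthetase genes, 4 (30.8%) fell and 12 (92.3%) had a negative log2 fold change, with a median of -0.25, where 9.16% of all genes of 10 FPKM and over fell and 72.9% were negative. The 4 were YARS1 (-0.40, limma adjusted p = 0.0287), GARS1 (-0.39, limma adjusted p = 0.0148), TARS1 (-0.38, limma adjusted p = 0.0107) and AARS1 (-0.35, limma adjusted p = 0.0153). AARS1, whose CARE is shown above, lay at 11.63 to 11.85 in vehicle and 11.28 to 11.56 in EZHi libraries. After centring 3 of the 13 were called lower, after quantile normalization 0 and with the block 9 (69.2%). Of all genes of 10 FPKM and over, 3.32%, 3.38% and 32.5% were called lower in these fits. With block and quantile normalization 6 of the 13 (46.2%) were lower, against 16.5% of such genes. On the deposited scale 7 of 13 had an unadjusted p under 0.05, as did 29.9% of all genes of 10 FPKM and over. Among 11 amino acid synthesis genes, GPT2 (-0.34, limma adjusted p = 0.0103) and ALDH18A1, of proline synthesis (-0.30, limma adjusted p = 0.00683), fell, while the mitochondrial folate gene ALDH1L2 rose by 0.53 (limma adjusted p = 0.0362). Those lower made up 18.2% of this list, against 9.16% of all genes of 10 FPKM and over. After centring 2 of the 11 were called lower and 1 higher, and after quantile normalization 1 lower and 0 higher. Of all genes of 10 FPKM and over, centring gave 3.32% lower and 5.26% higher, and quantile normalization 3.38% and 4.16%.

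**Figure D3:**
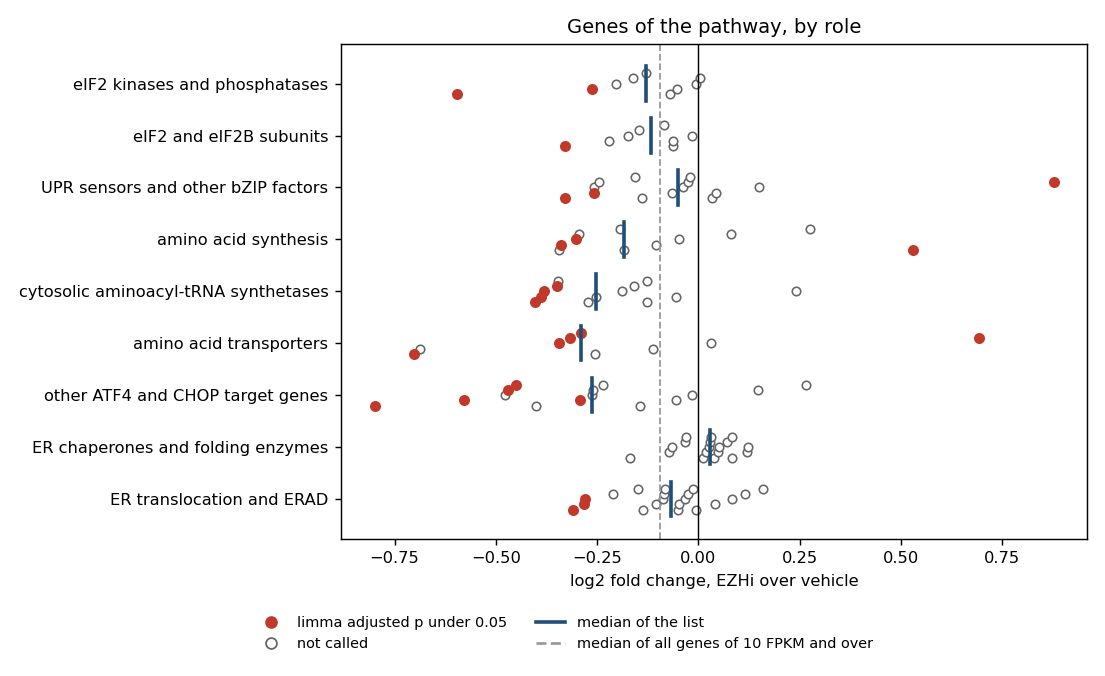
Log2 fold change (x axis, EZHi over vehicle) of each tested gene of the 9 lists, filled where the limma adjusted p was under 0.05, with the median of each list (blue) and of all genes of 10 FPKM and over (dashed). Medians of the amino acid transporters, synthetases and other ATF4 and CHOP targets lie at -0.29, -0.25 and -0.26, while the ER chaperones cluster around 0.03.

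No ER chaperone passed the test. Of 18 ER chaperones and folding enzymes, 0 were called by limma, 1 had an unadjusted p under 0.05, and the median log2 fold change was 0.03. CALR, which encodes calreticulin and holds an ERSE shown above, was at 14.83, 14.69, 14.44 and 14.79 in vehicle and 14.70, 14.94, 14.57 and 14.60 in EZHi replicates 1 to 4, a difference of 0.02 (limma adjusted p = 0.943). P4HB, a protein disulfide isomerase, differed by 0.04 (limma adjusted p = 0.853). With the block alone, 0 of the 18 chaperones were called higher and 1 lower. With block and centring 5 (27.8%) were called higher and 0 lower, where 16.1% of all genes of 10 FPKM and over were called higher. In the list of ER translocation and ER-associated degradation, 3 of 20 genes (15.0%) fell, where 9.16% of all genes of 10 FPKM and over fell. They were EDEM1 (-0.31, limma adjusted p = 0.0232), SEC31A (-0.28, limma adjusted p = 0.0204) and SEC24D (-0.28, limma adjusted p = 0.0242), and 0 of the 20 fell after centring. With the block 4 of the 20 (20.0%) were called lower and 1 higher, where 32.5% of all genes of 10 FPKM and over were called lower. SEC31A and SEC24D encode COPII coat proteins that carry cargo out of the ER. Whether the ER genes differed from the ATF4 targets as groups was not tested.

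Close relatives of TRIB3, SESN2 and CHAC1 were measured as well. TRIB2, a tribbles pseudokinase like TRIB3, was at 3.83, 4.03, 3.32 and 4.08 in vehicle and 6.60, 6.96, 6.93 and 6.99 in EZHi replicates 1 to 4. It thus rose 8.32-fold (log2 fold change 3.06, SE 0.175, limma adjusted p = 6.49e-06), from 0.561 ± 0.121 to 4.60 ± 0.550 FPKM (SD, n = 4), while TRIB3, the more abundant of the pair in both groups, fell. SESN3, a sestrin like SESN2, rose 5.60-fold, from 5.88 to 6.13 in vehicle to 8.25 to 8.65 in EZHi libraries (log2 fold change 2.49, SE 0.115, limma adjusted p = 3.59e-06). In vehicle libraries SESN3 (2.45 ± 0.199 FPKM) was below SESN2 (7.07 ± 0.784), and in EZHi libraries it was above (13.8 ± 1.95 against 6.78 ± 1.13). Both TRIB2 and SESN3 were also called with the block, after centring, after quantile normalization and in 8 of 8 fits without 1 library. TRIB1 (-0.37, limma adjusted p = 0.0987; with the block 0.000305), SESN1 (0.18, limma adjusted p = 0.4) and CHAC2 (-0.24, limma adjusted p = 0.712) are given to complete the families. The difference in response between family members was not tested.

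**Figure D4:**
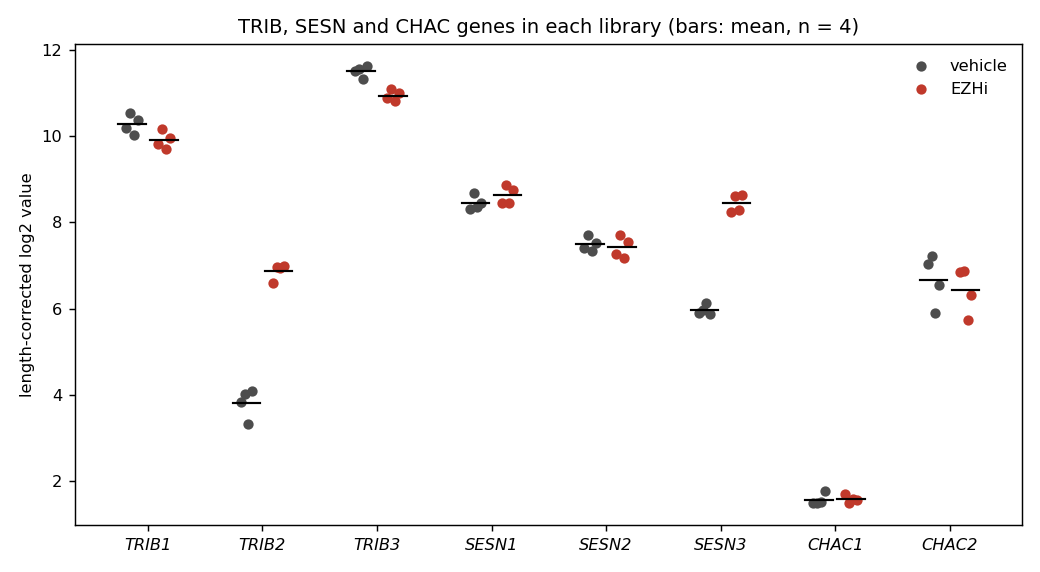
Length-corrected log2 value (y axis) of the TRIB, SESN and CHAC genes in the 4 vehicle (grey) and 4 EZHi (red) libraries, with bars for the means. TRIB2 and SESN3 rise from 3.82 to 6.87 and from 5.97 to 8.45, while TRIB3 falls from 11.51 to 10.95 and SESN2 lies between 7.18 and 7.70 in both groups.

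The genes whose values followed each of the 3 most variable members most closely were sought among 13007 genes of 1 FPKM and over, by the root mean square difference of values centred on their own mean over the 8 libraries. For TRIB3 they were TSPAN4 (0.050), MTHFD1L (0.0636), a mitochondrial folate enzyme, and ITPKA (0.0646). For DDIT3 they were ZDHHC7 (0.0524), COQ10B (0.0532) and VPS54 (0.0541). For ASNS, likeness was weaker, at 0.128 for CAHM and 0.133 for HERPUD1, an ER-associated degradation gene, and both groups and replicate numbers contribute to it.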

How the data were processed

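The mRNA of HepG2 cells had been sequenced as paired reads of 150 bp in 8 libraries. According to the study's methods, the authors mapped reads to hg38 with HISAT2, counted them over exons without strand with HTSeq in union mode, applied the regularized log of DESeq2 and corrected for mean transcript length. Per the labels the versions were HISAT2 2.2.1, HTSeq 0.9.1 and DESeq2 1.40.2. The deposited values are log2 values (-6.81 to 19.01), although named FPKM. The regularized log shrinks differences of weakly expressed genes. Groups came from the sample titles.

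Estimated FPKM is the value on the linear scale divided by 25.6, the mean library total (in Mreads) that the normalized values add up to. The 20153 genes of at least 0.1 FPKM were tested with limma 3.58.1 in R 4.3.3 (trended prior, group only, two-sided) with p-values adjusted by Benjamini-Hochberg over these genes (threshold 0.05). The fit was tested on simulated data with known changes. Python 3.11.15, numpy 2.4.6, pandas 2.3.3 and matplotlib 3.10.9 were also used. Depth is unknown and no counting interval can be given. Coordinates are from GENCODE release 44, and promoter sequences from RefSeq.

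Replicate numbers were taken to pair the samples because deviations of equal-numbered libraries from their group means correlated at 0.22 to 0.63 over 20153 genes, against at most 0.199 for other pairs. The members and lists were chosen with earlier results of these data known. All members were named, and per list up to 4 called genes of largest change in each direction, or the 2 most abundant where none was called. EIF2AK3, MARS1, TRIB1, SESN1 and CHAC2 fall outside this rule. Alternatives were the block, 2 further normalizations, centring, other filters and pseudocounts, an untrended prior and left-out libraries. Combinations with the block and the removal of both libraries numbered 3 were added after seeing the data. No list was tested as a set.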

Additional observations from a re-analysis of the deposited data

Results flagged for a closer look

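In the 20 groups of 4 values given by the 10 genes and 2 conditions, 1 library stood apart from the others by Dixon's criterion, where chance gives about 1. CHAC1 was at 1.77 in vehicle replicate 4 and at 1.482 to 1.497 in the other 3 vehicle libraries, so that the gap made up 0.947 of the range. The level of CHAC1 was 0.12 FPKM, and its value in EZHi replicate 1 was 1.69. The reason was not tested.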

How the results depend on the processing

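TRIB3 was called lower under every alternative run, and DDIT3 under all but centring and the left-out libraries named with its values. The replicate block gave 6051 genes called in place of 2644, 4 members in place of 2 and 55 pathway genes in place of 26. With the replicate block and centring these were 5917, 4 and 45, and with the replicate block and quantile normalization 5593, 4 and 48. Centring alone gave 1 member, 14 pathway genes and a member median of -0.011 in place of -0.11, with or without the block. Quantile normalization gave 11 pathway genes, and a filter at 1 FPKM 1579 genes called. Leaving out 1 library gave 1811 to 2571 genes, 1 to 2 members, a member median of -0.17 to -0.04 and 11 to 23 pathway genes (fewest without EZHi replicate 4). With the block the same gave 4120 to 5049 genes, 2 to 3 members, a median of -0.13 to -0.02 and 39 to 49 pathway genes. Without both libraries numbered 3, 1 member was called. Signs turned only among differences near 0: CHAC1 (0.02) was -0.12 after quantile normalization with or without the block, -0.024 to 0.085 without 1 library, -0.047 to 0.092 in the same fits with the block and -0.0044 without both libraries numbered 3. SESN2 (-0.07) was 0.026 after centring with or without the block and -0.16 to 0.012 without 1 library. ATF3 (0.06) was -0.020 to 0.13 without 1 library and -0.026 to 0.16 in the same fits with the block. Causes, the scaling shift among them, were not tested. The refits show only how calls moved with the scaling. CHAC1 is limited by its low level, ASNS by a low measured value that its shared exonic bases make uncertain, and small differences of abundant genes by the scaling.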
